A study of Mus musculus with 20 samples.

Results

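The lysyl oxidase family of the mouse has 5 genes, Lox, Loxl1, Loxl2, Loxl3 and Loxl4, and all 5 were found by name among the 24062 genes listed in the count tables. Their RNA was followed in the lungs of mice with or without Arg2, kept in room air or in low oxygen. All 5 passed the filter on low counts and were among the 15766 genes tested.

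Lysyl oxidases are secreted amine oxidases that need copper. They turn lysine side chains of collagen and elastin into reactive aldehydes, which then join neighbouring chains into the crosslinks that give these fibres their strength. Lox and Loxl1 carry a propeptide that proteases of the Bmp1 type remove, whereas Loxl2, Loxl3 and Loxl4 carry scavenger receptor domains in place of it. In the lung the family is known for elastic fibre assembly in airspaces and vessels, and chronic hypoxia is known to thicken pulmonary vessel walls with new matrix.

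Whole lungs of C57/129 mice, 8 to 10 weeks old, were taken after 28 days at 10% oxygen (hypoxia) or 21% oxygen (room air). The mice were Arg2+/+ or Arg2-/-, that is, with or without the gene of the mitochondrial arginase, which splits arginine. This gives 4 groups of 4 samples: wild type room air, wild type hypoxia, knockout room air and knockout hypoxia, and no treatment other than oxygen is labelled. Whether the numbered samples are separate animals is not stated, so p-values rest on how these samples vary, which may be technical, and in whole lung fewer cells of a type and less RNA per cell cannot be told apart.

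The shallowest sample, wild type room air 3, had 9531270 counts in genes, and the deepest, knockout room air 3, had 63331530. In 3 samples under 40% of reads fell in genes, namely wild type room air 3 (25.4%), wild type hypoxia 1 (35.5%) and knockout hypoxia 3 (37.7%). Lung markers were high in all 16 samples, with summed levels of the 10 alveolar epithelial markers from 19580 to 26030 CPM (counts relative to a fixed library total). Markers of organs other than lung stood out in 4 samples, called other-organ samples here: skeletal muscle in wild type room air 1 (1356 CPM in sum), thymocytes in knockout room air 3 (94.6 CPM) and exocrine pancreas in knockout hypoxia 1 and 2 (1689 and 128 CPM). The rule asked for a sum over 5 times the median of all samples and over 20 CPM. Just under it, and kept in the fits without the other-organ samples, were knockout room air 4 (thymocytes, 81.4 CPM, 4.63 times the median) and knockout hypoxia 3 (exocrine pancreas, 19.3 CPM, 6.06 times). The labels name both sexes, yet in 20 of 20 libraries 4 Y-linked genes together had more counts than Xist. Arg2 RNA was present in the knockout at 5.62 ± 1.47 CPM in room air and 4.28 ± 0.91 in hypoxia (SD, n = 4), against 9.19 ± 1.92 and 9.30 ± 2.25 in the wild type. Its fall passed the test in hypoxia (log2 fold change -1.13 ± 0.22 SE, edgeR adjusted p = 0.00191) but not in room air (-0.70 ± 0.21, adjusted p = 0.0842), and the exons that the knockout removes were not known here.

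The 5 genes lie on 5 chromosomes and share a short coding stretch around the copper site. It is shown for the 3 genes with scavenger receptor domains, because it encodes the histidines that hold the copper all 5 enzymes need. The 33 bases are the coding strand of GRCm38, read 5′ to 3′ with GENCODE vM21, and each stretch crosses an exon junction, so that the coordinates include an intron. Capitals mark the codons of the 3 histidines that hold the copper.
Loxl2, chr14:69682316-69689037, plus strand, exons 10 and 11: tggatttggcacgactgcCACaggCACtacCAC
Loxl3, chr6:83049995-83050125, plus strand, exons 10 and 11: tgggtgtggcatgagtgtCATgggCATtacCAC
Loxl4, chr19:42598807-42599899, minus strand, exons 11 and 12: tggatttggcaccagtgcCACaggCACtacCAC

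Loxl2 and Loxl4 had 31 of these 33 bases in common, while Loxl3 shared 25 with each of them. Over whole transcripts the longest run of identical bases between any 2 of the 5 genes was 32 bases, and in the 10 pairs it ranged from 11 to 32. Loxl1 (chromosome 9, 58287738 to 58313186, minus strand) and Loxl4 (chromosome 19, 42593982 to 42612813, minus strand) shared no exon base with another gene. Loxl2 (chromosome 14, 69609068 to 69695834, plus strand) shared 308 exon bases with other annotated genes. Loxl3 (chromosome 6, 83034173 to 83052562, plus strand) shared 535 exon bases with Htra2, a protease gene on the opposite strand. The strand setting of the authors' counting is not given, so reads of Loxl3 and Htra2 may not be fully told apart. Htra2 itself stood at 20.7 to 22.1 CPM in the group means, with a log2 fold change in hypoxia of -0.03 ± 0.10 in wild type (adjusted p = 0.925) and -0.07 ± 0.10 in the knockout (adjusted p = 0.717).

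Levels below are CPM on library sizes scaled by TMM, and tests are two-sided edgeR quasi-likelihood tests with p-values adjusted over all 15766 genes. Levels called unscaled rest on the plain library totals. Scaling moved wild type hypoxia 4 more than any other sample, for Lox from 86.2 CPM unscaled to 108 CPM. A gene is called, or said to rise or fall, when its adjusted p is under 0.05.

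Lox, the founding member, which crosslinks collagen and elastin and without which newborn mice die of arterial rupture, had a different level in each of the 4 groups. In wild type room air it was measured at 39.0, 34.2, 59.3 and 30.6 CPM in samples 1 to 4. The wild type hypoxia samples had 119, 99.9, 90.3 and 108 CPM. Knockout room air gave 83.6, 81.0, 66.9 and 86.2 CPM, and knockout hypoxia 157, 138, 168 and 138 CPM. The order was thus wild type room air (40.8 ± 12.8 CPM, SD, n = 4), knockout room air (79.4 ± 8.62), wild type hypoxia (104 ± 12.2) and knockout hypoxia (150.3 ± 14.5). No neighbouring groups in this order overlapped on TMM-scaled levels. Unscaled, wild type hypoxia 4 had 86.2 CPM, below knockout room air 1 (86.6 CPM) and 4 (89.4 CPM). The step from knockout room air to wild type hypoxia changes genotype and oxygen together and was not tested. The highest wild type room air value came from sample 3, which had the fewest counts in genes, where it rested on 552 counts.

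**Figure D1:**
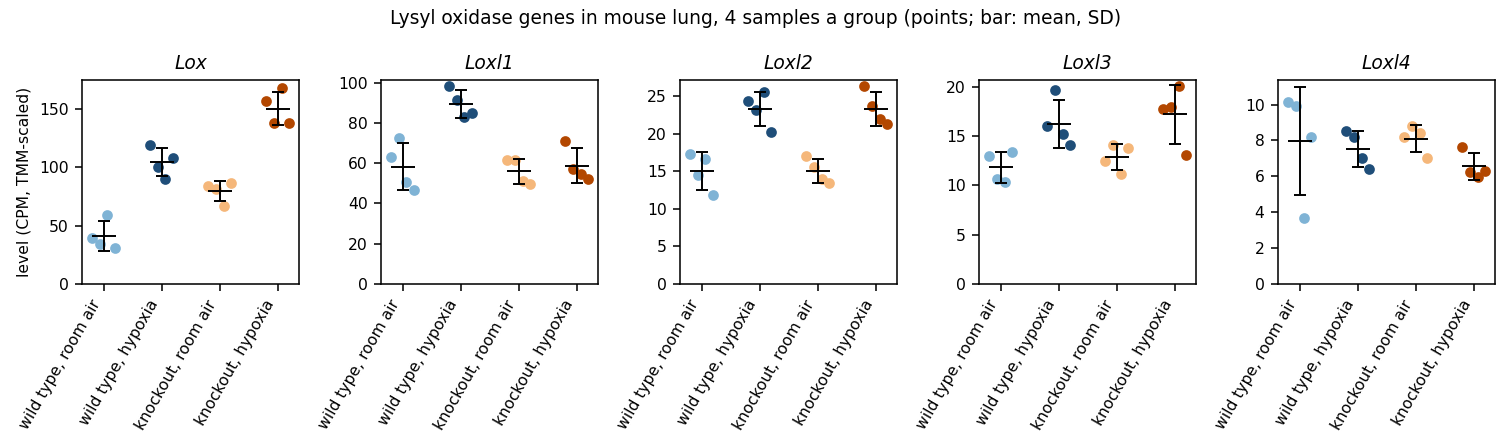
Level of each lysyl oxidase gene in the 16 samples in CPM on TMM-scaled library sizes, by group, with the y axis from 0 in each panel; points are samples, and the bar gives the mean with 1 SD. From left to right the Lox means are 40.8, 104, 79.4 and 150.3 CPM, and its groups do not overlap on this scale. Loxl1 is raised in wild type hypoxia (82.9 to 98.6 CPM), and the 4 groups of Loxl4 overlap.

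Loxl1, which is bound to elastic fibres and whose loss in mice enlarges the airspaces, was high in a single group. Wild type room air samples had 63.1, 72.6, 50.6 and 46.7 CPM, and wild type hypoxia samples 98.6, 91.3, 82.9 and 84.7 CPM. Knockout room air samples had 61.4, 61.4, 51.1 and 49.9 CPM, and knockout hypoxia samples 71.2, 57.1, 54.5 and 51.9 CPM. On TMM-scaled levels every wild type hypoxia sample thus lay above every sample of the other 3 groups, which overlapped one another. Unscaled, wild type hypoxia 4 had 67.6 CPM, below wild type room air 2 (74.1 CPM) and knockout hypoxia 1 (70.1 CPM). The group means were 58.3 ± 11.8, 89.4 ± 7.14, 55.9 ± 6.30 and 58.7 ± 8.61 CPM in the same order.

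Loxl2, an enzyme known for crosslinking collagen IV of basement membranes, separated the samples by oxygen on the scaled levels. It had 17.3, 14.5, 16.6 and 11.8 CPM in the wild type in room air and 24.3, 23.1, 25.5 and 20.3 CPM in wild type hypoxia. In the knockout it had 17.00, 15.6, 13.999 and 13.5 CPM in room air and 26.4, 23.6, 21.9 and 21.3 CPM in hypoxia. On TMM-scaled levels all 8 hypoxia samples lay above all 8 room air samples. Unscaled, wild type hypoxia 4 had 16.2 CPM, below wild type room air 1 (18.2 CPM) and knockout room air 1 (17.6 CPM). The 2 genotypes had nearly equal scaled means, 15.02 ± 2.47 and 15.02 ± 1.61 CPM in room air and 23.3 ± 2.25 and 23.3 ± 2.25 CPM in hypoxia.

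Loxl3, needed in mice for the palate and spine, was measured at 13.0, 10.6, 10.3 and 13.4 CPM in wild type room air, and 16.01, 19.7, 15.2 and 14.1 CPM in wild type hypoxia. Knockout room air samples had 12.5, 14.1, 11.1 and 13.8 CPM, and knockout hypoxia samples 17.7, 17.96, 20.1 and 13.0 CPM. The wild type groups did not overlap on TMM-scaled levels, but knockout hypoxia 4 lay within the range of knockout room air. Unscaled, wild type hypoxia 4 had 11.2 CPM, below wild type room air 4 at 13.8 CPM. Loxl4, a secreted amine oxidase like the others, had 10.2, 9.92, 3.66 and 8.18 CPM in the wild type in room air and 8.55, 8.21, 7.02 and 6.41 CPM in wild type hypoxia. Its knockout samples had 8.17, 8.81, 8.42 and 7.02 CPM in room air and 7.63, 6.26, 5.99 and 6.31 CPM in hypoxia. All 4 groups of Loxl4 overlapped, and its lowest value, in wild type room air 3, rested on 34 counts.

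Hypoxia in the wild type raised Lox, Loxl1 and Loxl2, so that 3 of the 5 genes rose and none fell. Over all genes tested, 4.98% were called in this comparison, 2.67% higher and 2.31% lower. Lox rose by 1.37 ± 0.16 on the log2 scale (adjusted p = 2.73e-05), a 2.59-fold higher level. Loxl2 rose by 0.64 ± 0.12 (adjusted p = 0.00343) and Loxl1 by 0.61 ± 0.13 (adjusted p = 0.00701), both by a little over 1.5-fold. Loxl3 was at 0.45 ± 0.14 and did not pass the test (adjusted p = 0.0789), although its groups did not overlap on TMM-scaled levels. It passed in 4 of 29 alternative analyses, among them those without wild type hypoxia 4 (adjusted p = 0.0465) and without knockout hypoxia 4 (adjusted p = 0.04995). Loxl4 was at -0.12 ± 0.21 (95% interval -0.56 to 0.31, adjusted p = 0.840). Lox and Loxl2 were called in 29 of 29 alternatives, and Loxl1 in 28, the exception being the fit without the 3 samples in which under 40% of reads fell in genes (adjusted p = 0.0791).

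In the knockout, hypoxia raised Lox, Loxl2 and Loxl3, again 3 of the 5 genes. Of all genes 17.0% were called here, 7.93% higher and 9.10% lower. Lox rose by 0.92 ± 0.15 on the log2 scale (adjusted p = 0.000437), a 1.89-fold higher level, and Loxl2 by 0.63 ± 0.12 (adjusted p = 0.00129), a 1.55-fold higher level. Loxl3 rose by 0.42 ± 0.14 with an adjusted p of 0.0472, close to the threshold, and kept its call in 14 of 29 alternatives. Leaving out any of the 4 knockout room air samples, knockout hypoxia 1, 2 or 3, or the first sample of either wild type group, ended that call, with adjusted p up to 0.414 over all alternatives. Loxl1 stood at 0.07 ± 0.13 (95% interval -0.20 to 0.34, adjusted p = 0.774), against 0.61 in the wild type (95% interval 0.34 to 0.88). The difference of these 2 effects, tested below as an interaction, was not called. Loxl4 was at -0.30 ± 0.21 (adjusted p = 0.356). The call of Loxl2 was lost without the 4 other-organ samples (adjusted p = 0.0682), and that of Lox was kept in 29 of 29 alternatives.

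**Figure D2:**
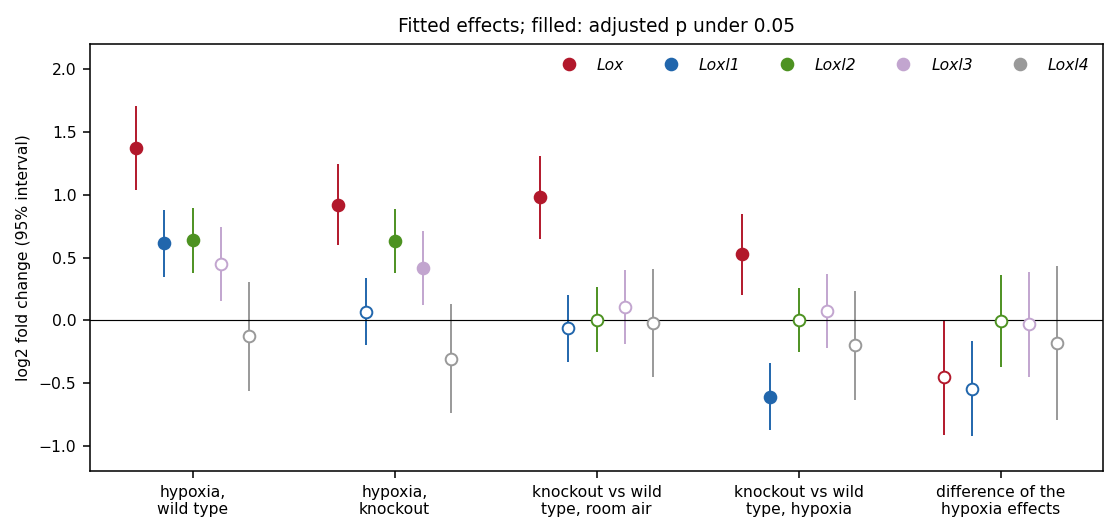
Fitted log2 fold changes of the 5 genes with 95% intervals (y axis) for the hypoxia effect in each genotype, knockout against wild type at each oxygen level, and the difference of the hypoxia effects (x axis); filled points have an adjusted p under 0.05. Loxl2 sits at 0.64 and 0.63 in the 2 genotypes, whereas Loxl1 goes from 0.61 in wild type to 0.07 in the knockout, and no filled point appears for the difference.

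The difference between the hypoxia effects of the 2 genotypes was tested directly as an interaction. It was called for 0 of the 5 genes by edgeR, for 0 by DESeq2 and for 0 by limma voom, with 1 gene, Loxl1, at an unadjusted edgeR p under 0.05. Over all genes 0.501% were called, 0.279% higher and 0.222% lower. The split between directions turned with the scaling: 44 genes were called higher and 35 lower with TMM, 35 higher and 44 lower with upper quartile scaling. For Loxl1 the effect in the knockout minus that in the wild type was -0.54 ± 0.18 on the log2 scale (unadjusted p = 0.00767, adjusted p = 0.172). For Lox it was -0.45 ± 0.22 (unadjusted p = 0.0526, adjusted p = 0.360). Without wild type room air 3 the Lox difference was -0.67 (adjusted p = 0.0548). For Loxl2 it was 0.00 ± 0.17, with a 95% interval of -0.37 to 0.36, and for Loxl3 -0.03 ± 0.20, with an interval of -0.45 to 0.39. The interval of Loxl4 was wider still, at -0.79 to 0.43. A p-value above the threshold does not show that the 2 genotypes responded alike.

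Averaged over both genotypes, hypoxia raised 4 of the 5 genes. Over all genes 17.9% were called for this average, 8.54% higher and 9.39% lower. The mean effect was 1.15 ± 0.11 on the log2 scale for Lox (adjusted p = 8.07e-07), 0.64 ± 0.09 for Loxl2 (adjusted p = 3.17e-05), 0.43 ± 0.10 for Loxl3 (adjusted p = 0.00444) and 0.34 ± 0.09 for Loxl1 (adjusted p = 0.0125). Loxl4, at -0.21 ± 0.15, did not pass (adjusted p = 0.359), but it was called lower without wild type room air 3. The mean effects of Loxl1 and Loxl3 were not called without the 4 other-organ samples, and that of Loxl1 not without the 3 samples with few reads in genes. These averages use the same samples as the 2 comparisons within genotypes and add no independent evidence.

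In room air the knockout had more Lox RNA than the wild type, at 1.97 times the level. The log2 fold change was 0.98 ± 0.16 (95% interval 0.65 to 1.31, adjusted p = 0.0273). Each of the 4 knockout samples lay above each of the 4 wild type samples, which is a description and no test. An unadjusted edgeR p under 0.05 was found for 3408 of all 15766 genes here. Only 0.0761% of all genes were called between genotypes in room air, 0.0571% higher and 0.0190% lower, which is 12 genes, and Lox ranked 3 among all genes by p. Its direction was the same in all 29 alternatives, from 0.86 to 1.20, but its call was kept in 18. It was lost without sample 1, 2 or 4 of wild type room air, without wild type hypoxia 3, any of the 4 knockout room air samples or knockout hypoxia 2, without the other-organ samples (adjusted p = 0.196), and when only the 2 groups compared were fitted (adjusted p = 0.117). Without wild type room air 3 the adjusted p was 3.65e-05, and the number of genes called rose from 12 to 2198. It was 296 without wild type hypoxia 2, 96 without wild type hypoxia 4 and at most 6 when any sample but these or wild type hypoxia 1 was left out. DESeq2 gave an adjusted p of 8.17e-06 for Lox and limma voom 0.00492.

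The other 4 genes were not called between genotypes in room air. Loxl1 was at -0.06 ± 0.13 on the log2 scale (95% interval -0.33 to 0.21), Loxl2 at 0.01 ± 0.12 (-0.25 to 0.27), Loxl3 at 0.11 ± 0.14 (-0.19 to 0.41) and Loxl4 at -0.02 ± 0.20 (-0.45 to 0.41). A change of the size seen for Lox, 0.98, lay outside each of these intervals.

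In hypoxia the genotypes differed in Lox and Loxl1, and in opposite directions. Of all genes 23.0% were called in this comparison, 11.0% higher and 12.1% lower in the knockout. An unadjusted edgeR p under 0.05 was found for 5820 of all 15766 genes. The order of samples given below is a description and no test. Lox was higher in the knockout by 0.53 ± 0.15 on the log2 scale (adjusted p = 0.0210), and each knockout sample lay above each wild type sample. Loxl1 was lower by 0.61 ± 0.13 (log2 fold change -0.61, adjusted p = 0.00359), to 65.7% of the wild type mean. Each knockout sample lay below each wild type sample on TMM-scaled levels. Unscaled, knockout hypoxia 1 (70.1 CPM) lay above wild type hypoxia 4 (67.6 CPM). The call of Loxl1 was kept in 29 of 29 alternatives. That of Lox was lost without knockout hypoxia 3 (adjusted p = 0.0645) and without the 4 other-organ samples (adjusted p = 0.0748). Loxl2 was at 0.00 ± 0.12 (95% interval -0.25 to 0.26, adjusted p = 0.992), Loxl3 at 0.08 ± 0.14 (adjusted p = 0.731) and Loxl4 at -0.20 ± 0.21 (adjusted p = 0.523).

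**Figure D3:**
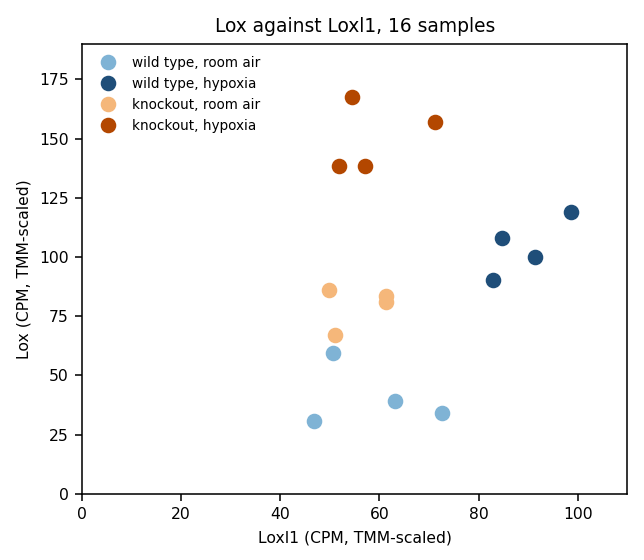
Lox level against Loxl1 level in CPM on TMM-scaled library sizes, 1 point per sample, both axes from 0, coloured by group. Wild type hypoxia lies to the right at 82.9 to 98.6 CPM of Loxl1, and knockout hypoxia at the top at 138 to 168 CPM of Lox with Loxl1 at 51.9 to 71.2 CPM.

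To compare levels between the genes, CPM were divided by the length of the merged exons in kilobases. On this scale Loxl1 was the most abundant in wild type room air at a mean of 17.7 CPM per kb, followed by Lox at 8.54, Loxl2 at 2.78, Loxl3 at 2.57 and Loxl4 at 1.89. Loxl1 stayed first in wild type hypoxia, at 27.1 CPM per kb against 21.8 for Lox. In knockout room air the 2 genes were level, at 16.97 and 16.6 CPM per kb. In knockout hypoxia Lox came first at 31.5 CPM per kb and Loxl1 second at 17.8, while Loxl2, Loxl3 and Loxl4 were at 4.31, 3.73 and 1.55.

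The ratio of Lox to Loxl1 per kb was 0.50 ± 0.21 (SD, n = 4) for wild type room air, 0.80 ± 0.06 for wild type hypoxia, 0.99 ± 0.14 for knockout room air and 1.79 ± 0.26 for knockout hypoxia. In knockout hypoxia every sample was above 1, from 1.52 to 2.12. Every wild type sample was below 1, with wild type room air 3 at 0.81 against 0.33 to 0.45 in the other samples of its group. Knockout room air ranged from 0.90 to 1.19, on both sides of 1.

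The summed level of the 5 genes was similar in the 2 hypoxia groups, at 58.6 ± 4.72 CPM per kb in wild type and 58.9 ± 5.38 in the knockout. In room air it was 33.5 ± 4.04 and 41.1 ± 3.45 CPM per kb. Lox made up 37.2% ± 2.34 of that sum in wild type hypoxia and 53.5% ± 2.95 in knockout hypoxia, and the share of Loxl1 was 46.3% ± 0.69 and 30.2% ± 2.63. Loxl2, Loxl3 and Loxl4 held the rest. Shares and sums are descriptions over the 5 genes and were not tested.

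**Figure D4:**
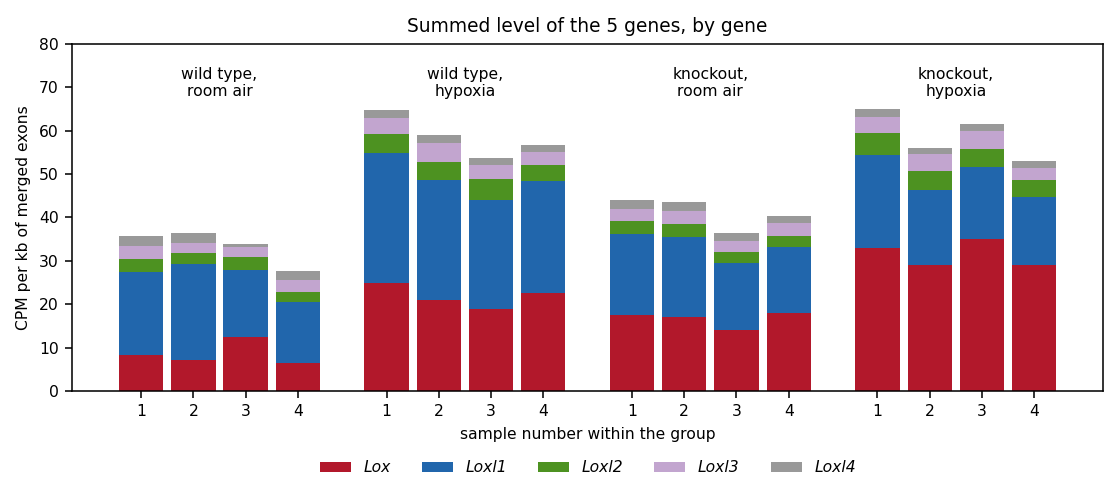
Stacked bars of the 5 genes in CPM per kb of merged exons for each of the 16 samples, grouped by genotype and oxygen, with the y axis from 0. Total height is alike in the 2 hypoxia groups (58.6 and 58.9 CPM per kb on average), but the red Lox segment is taller in the knockout and the blue Loxl1 segment taller in the wild type.

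Across the 16 samples the 5 genes did not follow a single pattern. Pearson's r of log2 CPM was 0.77 between Lox and Loxl2, 0.69 between Lox and Loxl3, 0.69 between Loxl2 and Loxl3 and 0.61 between Loxl1 and Loxl2. It was 0.24 between Lox and Loxl1 and -0.34 between Lox and Loxl4. These values contain the group differences. With the group means subtracted they were 0.42, -0.03, 0.03 and 0.58 for the first 4 pairs, 0.04 for Lox and Loxl1, and -0.65 for Lox and Loxl4. The last 2 genes had the lowest and one of the highest GC contents of the family, 43.9% and 56.6%. They went apart in the low-depth wild type room air 3, where Lox was highest and Loxl4 lowest of its group. Whether GC content or depth had a part in their r was not tested.

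GC content differs within the family, with Loxl1 highest at 61% and Loxl2 and Loxl3 at 51.7% and 53.4%. Removing a smooth trend of counts with GC content in each sample left the calls of Lox in place, with 0.89 (adjusted p = 0.0227) between genotypes in room air and 0.42 (adjusted p = 0.0389) in hypoxia on the log2 scale. The lower Loxl1 in knockout hypoxia remained at -0.50 (adjusted p = 0.00266) after the same correction.

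Each gene had its own set of genes with the most similar profile over the 16 samples, measured as Pearson's r of log2 CPM among 14239 tested genes with a mean of at least 1 CPM. For Lox these were Jam2, a junctional adhesion molecule (r = 0.937), Aspn, a small proteoglycan of the matrix (0.930), and Eltd1, an adhesion receptor of endothelium (0.927). For Loxl1 they were Wscd2 (0.948), Fbn1, which encodes the elastic fibre scaffold fibrillin-1 (0.925), and Mmp14, a membrane-bound matrix protease (0.923). Loxl2 was nearest to the lipase gene Lipe (0.951), Gxylt2 (0.933) and the elastin gene Eln (0.925). Loxl3 was nearest to Myl9, the light chain of smooth muscle myosin (0.955), Vstm4 (0.913) and the dipeptidase gene Dpep1 (0.911). For Loxl4 the nearest were the peptidase gene Xpnpep2 (0.885), Ndufs6 of respiratory complex I (0.881) and the kinase gene Srpk3 (0.868).

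Fbn1 had 210 ± 44.1, 297 ± 24.3, 191 ± 14.99 and 215 ± 31.2 CPM for the groups in the order used above, with its peak in the same group as Loxl1. Jam2 had its group means in the same order as Lox, at 79.3 ± 14.02, 164 ± 16.5, 108 ± 10.95 and 279 ± 26.9 CPM. The steps between groups differed in size from those of Lox. Within groups, r was 0.91 between Loxl3 and Myl9 and 0.87 between Loxl2 and Eln. Neighbours of Loxl4 varied mostly within groups, with an r of 0.90 for Xpnpep2 after the group means were subtracted.

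The substrates of the family moved with hypoxia in part. Of 8 fibrillar collagen and elastin genes tested, 2 rose in the wild type, none fell and 6 were not called, with a median log2 fold change of 0.42 against -0.01 over all genes. The shares of all genes in this comparison were 2.67% higher and 2.31% lower. In the knockout 2 of the 8 genes rose, 1 fell and 5 were not called. Their median log2 fold change there was -0.08 against 0.004 over all genes, of which 7.93% rose and 9.10% fell. Eln, the elastin gene, went up from 81.7 ± 24.2 to 359 ± 86.9 CPM in the wild type (2.14 ± 0.23 log2, adjusted p = 4.20e-05) and from 125 ± 20.5 to 250 ± 60.1 CPM in the knockout (1.00 ± 0.23, adjusted p = 0.00607). The second was not called without the other-organ samples. Col5a2 rose in both, by 0.49 ± 0.11 and 0.36 ± 0.11 on the log2 scale, and in the knockout Col5a1 fell by 0.42 (log2 fold change -0.42 ± 0.14, adjusted p = 0.0464). Col5a2 kept its wild type call in 25 of 29 alternatives and lost it without wild type hypoxia 1. Its knockout call was kept in 20, with adjusted p up to 0.279, and was lost without knockout room air 1, 3 or 4 or knockout hypoxia 1, 2 or 3. Col5a1 kept its call in 14 of 29 alternatives. Between genotypes in hypoxia 12.1% of all genes were lower in the knockout and 11.0% higher. Of the 8 genes, 4 were lower and none higher. They were Col5a1 (-0.55 ± 0.14 log2), Col1a1 (-0.75 ± 0.22), Col1a2 (-0.48 ± 0.15) and Col3a1, the chains of collagens V, I and III. The count was 1 without the 3 samples with few reads in genes, and 22 and 19 of 29 alternatives kept Col1a1 and Col1a2.

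Of 6 collagen IV genes, the known substrates of Loxl2, Col4a1 and Col4a2 rose in both genotypes. Over all genes, 2.67% rose and 2.31% fell in the wild type, and 7.93% and 9.10% in the knockout. Col4a1 went from 1058 ± 85.3 to 1935 ± 126 CPM in the wild type (0.87 ± 0.10 log2, adjusted p = 1.39e-05) and from 993 ± 64.6 to 1688 ± 245 CPM in the knockout (0.77 ± 0.10, adjusted p = 2.49e-05). Col4a2 rose by 0.68 ± 0.11 and 0.67 ± 0.11 on the log2 scale. Col4a6 fell by 0.49 in the knockout (-0.49 ± 0.09). In hypoxia Col4a6 (-0.51 ± 0.09) and Col4a3 (-0.27 ± 0.09) were lower in the knockout than in the wild type, the second in 19 of 29 alternatives. That comparison called 12.1% of all genes lower and 11.0% higher.

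Among 13 tested genes for processing and partners of the enzymes, 1 rose and 2 fell in wild type hypoxia and 3 rose and 2 fell in knockout hypoxia. The shares of all genes were 2.67% higher and 2.31% lower in the wild type, and 7.93% and 9.10% in the knockout. Bmp1, the protease that removes the propeptide of Lox, was not called in either (-0.14 ± 0.12 and 0.10 ± 0.12 log2). Its relative Tll1 fell from 14.2 ± 0.93 to 8.43 ± 1.02 CPM in the wild type (-0.76 ± 0.12, adjusted p = 0.000647) and from 12.6 ± 0.46 to 8.33 ± 1.27 CPM in the knockout (-0.60 ± 0.12, adjusted p = 0.00194). Fbln5, which brings Loxl1 to elastin, rose in the knockout from 111 ± 5.24 to 153 ± 8.09 CPM (0.46 ± 0.08, adjusted p = 0.000439), and was at 0.27 ± 0.08 in the wild type (adjusted p = 0.0524). Thbs1 fell (-0.97 ± 0.18) and the procollagen protease gene Adamts2 rose (0.67 ± 0.13) in the wild type, while Adamts14, a protease of the same kind, fell in the knockout (-1.15 ± 0.30). In hypoxia Pcolce, an enhancer of procollagen processing, was lower in the knockout (-0.42 ± 0.08 log2, adjusted p = 0.00189).

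Of 7 copper supply genes tested, 1 was called with hypoxia in each genotype, against 4.98% of all genes in the wild type and 17.0% in the knockout. Atp7a, the pump that loads copper onto secreted enzymes, fell in wild type hypoxia (-0.45 ± 0.10 log2, adjusted p = 0.0102), a call lost without the other-organ samples, without the 3 samples with few reads in genes and with the 2 groups alone. Slc31a2, a copper transporter, rose in knockout hypoxia (0.44 ± 0.08, adjusted p = 0.000582). The other crosslinking enzymes included Plod1, which hydroxylates collagen lysines and rose by 0.38 ± 0.10 on the log2 scale in the wild type and by 1.02 ± 0.10 in the knockout, where 3 of 8 genes of this list rose and 1 fell. The wild type call was kept in 21 of 29 alternatives and lost without sample 1 or 2 of wild type room air or sample 1, 2 or 3 of wild type hypoxia. The difference of these effects was called (0.65 ± 0.14, adjusted p = 0.0455), but in 9 of 28 alternatives only. Plod2 was higher in the knockout in hypoxia (0.45 ± 0.10, adjusted p = 0.00353), and Pxdn, which crosslinks collagen IV, was lower (-0.49 ± 0.11, adjusted p = 0.00453).

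**Figure D5:**
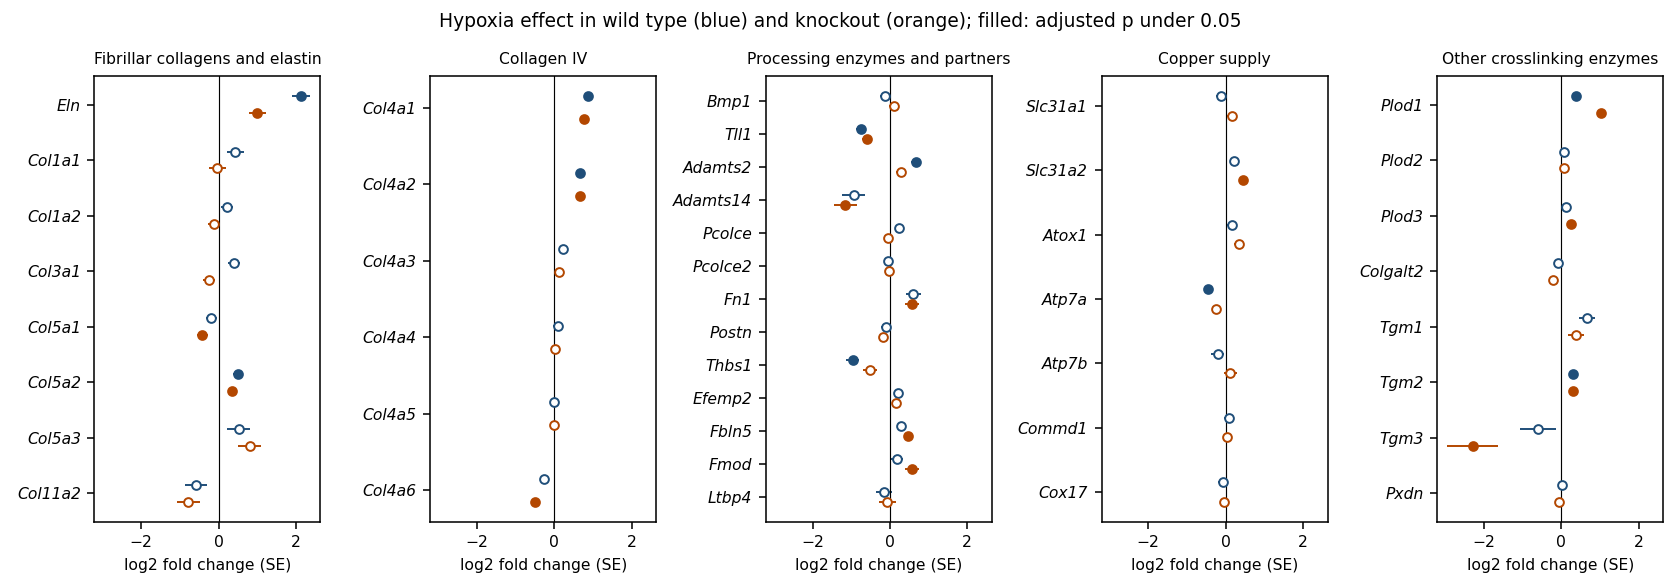
Hypoxia effect as log2 fold change with SE (x axis) in wild type (blue) and knockout (orange) for the tested genes of 5 lists of substrates, partners, copper supply and other crosslinking enzymes; filled points have an adjusted p under 0.05. Eln reaches 2.14 in wild type and 1.00 in the knockout, Col4a1 and Col4a2 are filled in both, and most genes of copper supply lie near 0.

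Of 15 targets of hypoxia-inducible factors, regulators that also drive Lox in cultured human cells, 4 rose and 1 fell in each genotype. The shares of all genes were 2.67% higher and 2.31% lower in the wild type, and 7.93% and 9.10% in the knockout. Over the alternatives 2 to 4 rose and 0 to 1 fell in the wild type, and 2 to 5 rose and 1 to 4 fell in the knockout. Ndrg1 and Ldha rose in both, Ndrg1 by 0.79 ± 0.11 on the log2 scale in the wild type and by 1.58 ± 0.11 in the knockout. Bnip3 (1.08 ± 0.21 against 0.43 ± 0.20 in the knockout) and Ankrd37 (2.69 ± 0.52 against 0.06 ± 0.52) were called in the wild type, the second not by limma voom, not with the 2 groups alone and not without the other-organ samples. P4ha2 (0.88 ± 0.11 against 0.12 ± 0.11 in the wild type) and P4ha1 (0.72 ± 0.19 against -0.23 ± 0.19) were called in the knockout. Of these 6 genes the difference between genotypes was called for Ndrg1 and P4ha2, each in 16 of 28 alternatives. Vegfa fell in the wild type (-0.26 ± 0.07, adjusted p = 0.0302), a call lost without sample 1, 2 or 4 of wild type room air or sample 1, 2 or 3 of wild type hypoxia, and Pdk1 fell in the knockout (-0.42 ± 0.09, adjusted p = 0.00176). Of 10 TGF-beta ligands and response genes, 1 rose in wild type hypoxia, Tgfb3 (0.50 ± 0.09 log2, adjusted p = 0.00119). None was called in knockout hypoxia by edgeR, with 1 at an unadjusted p under 0.05, 1 by DESeq2 and 1 by limma voom. In hypoxia 5 of the 10 TGF-beta ligands and response genes separated the genotypes, 1 with more RNA in the knockout and 4 with less. Skil was up (0.77 log2), while Tgfb2 (-0.55) and Tgfbi (-0.52) were down, each in 29 of 29 alternatives. This comparison also called 7 of the 15 targets of hypoxia-inducible factors, 3 up and 4 down. Of the 67 tested genes of all 7 lists it called 27, 8 up and 19 down, against 11.0% and 12.1% of all genes. Between genotypes in room air 0 of the 67 tested genes of all 7 lists were called by edgeR, 19 had an unadjusted p under 0.05, and DESeq2 called 8 and limma voom 6.

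Markers of matrix-producing cells were read from the same samples. For the counts of markers below, the share of all genes called higher was 2.67% in wild type hypoxia. In knockout hypoxia 7.93% of all genes rose and 9.10% fell. Between genotypes in hypoxia 11.0% were higher and 12.1% lower in the knockout. The 10 fibroblast markers summed to 1357 to 1423 CPM in wild type room air, 1465 to 1604 in wild type hypoxia, 1276 to 1427 in knockout room air and 1293 to 1542 in knockout hypoxia. The 10 smooth muscle markers ranged from 1191 to 1505, 1379 to 1651, 1178 to 1312 and 1019 to 1470 CPM in the same order, and 5 of them were lower in the knockout in hypoxia and none higher. The 8 pericyte markers ranged from 374 to 523, 546 to 702, 361 to 437 and 599 to 728 CPM, and 3 of them rose with hypoxia in each genotype. No marker of these 3 lists was at 0 in all 16 samples. Other cell types moved in the same comparisons. The macrophage sum had medians of 979 and 1331 CPM in wild type room air and hypoxia and of 1023 and 1389 in the knockout, with 1 and 2 of 8 markers called higher. The 8 B cell markers had medians of 105 CPM in wild type hypoxia and 43.0 in knockout hypoxia, and 8 of 8 were lower in the knockout, as were 5 of 8 T cell markers. The sum of 8 markers of red blood cell precursors, 3 of them at 0 in all samples, had medians of 392 and 841 CPM in these 2 groups, with 2 of 4 tested called higher. With hypoxia in the knockout, 8 of 8 B cell, 7 of 8 T cell and 6 of 9 heart muscle markers fell. The part of all these cell types in the results on Lox, Loxl1, Loxl2 and Loxl3 was not tested.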

How the data were processed

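Ribosome-depleted total RNA of whole lung was sequenced as 20 directional libraries, per the labels' protocols. The submitters' processing notes name Trim Galore, TopHat2, HTSeq and the build mm10, without versions; the annotation and strand setting used for counting were not given. Values as deposited by the authors are unnormalized read counts for each gene. Every file also holds 5 lines that name no gene, which were left out of library sizes and tests; reads in genes were 25.4% to 64.2% of reads in genes or in no gene. Coordinates and lengths come from GENCODE vM21 on GRCm38, in which 23685 of the 24062 symbols (98.4%) were found.

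Libraries A and B of one number (4 pairs) were summed, giving 16 samples. Chi-square over its degrees of freedom was 1.52 to 2.08, after thinning to 2936781 counts. Between an A or B library and other numbers of its group it was 3.78 to 21.9. Among single libraries, wild type hypoxia 4 stood far from samples 1, 2 and 3 of its group, at 134.9, 142.4 and 139.2. Counts were tested with edgeR 4.0.16 in R 4.3.3: TMM, filterByExpr (minimum count 10, minimum total 15), and all 4 groups in a single robust quasi-likelihood fit (biological coefficient of variation 15.8%), with Benjamini-Hochberg adjustment over 15766 genes. Intervals are 95% intervals on the fit's degrees of freedom. A count of 0 would allow up to 0.0474 to 0.315 CPM (3 counts, counting error only). DESeq2 1.42.0, voom of limma 3.58.1, other scalings, no filter, a GC correction and leaving out each sample were the alternatives. The code was tested on simulated data.

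The members and gene lists were chosen with earlier results of these data known. Named genes are the 5 members, up to 3 called genes per list and comparison with the smallest p, the 3 genes most like each member, and genes named outside this rule for a count or a check (Arg2, Htra2, Xist, Bmp1, Col3a1, Vegfa, P4ha1, Fbln5 in the wild type), which were chosen after their values were seen.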

Additional observations from a re-analysis of the deposited data

Results flagged for a closer look

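No sample stood far from the rest of its group in any of the 20 groups of 4 samples of the 5 lysyl oxidase genes. Among 140 groups of the 35 named genes of the lists, a single sample stood far from the other 3 in 5, and chance alone marks about 1 group in 20. These were Col4a3 at 469 CPM in wild type room air 2, Tgm2 at 889 CPM in wild type hypoxia 2, Pdk1 at 55.7 CPM in knockout room air 4, Ldha at 117 CPM in the second wild type room air sample, and Tgfb3 at 58.3 CPM in knockout hypoxia 1.

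For 3 genes of the lists the effect of hypoxia differed between genotypes by the interaction test: the knockout effect exceeded the wild type effect by 0.65 for Plod1, by 0.76 for P4ha2 and by 0.78 for Ndrg1, on the log2 scale. The adjusted p was 0.0455, 0.0356 and 0.0317 in that order, and 9, 16 and 16 of 28 alternatives kept the call.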

How the results depend on the processing

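Both the counts of genes called and some calls of the 5 genes changed with the processing. Among the 5 genes, Loxl3 kept its call in knockout hypoxia in 14 of 29 alternatives. Lox kept its call between genotypes in room air in 18 of 29. For hypoxia in wild type (785), 400 were called with the 2 groups alone, 492 without the other-organ samples and 484 to 1051 when 1 sample was left out. For hypoxia in the knockout (2685) the count was 1370 without those samples. For genotype in room air (12) it was 29 with DESeq2 size factors, 113 with upper quartile scaling, 20 without a filter, 1092 by DESeq2, 959 by voom, 238 with the replicate block, 4 with the 2 groups alone, 1706 with 20 libraries, 207 with the A library alone, 46 with the GC trend removed (951 when wild type room air 3 was also left out), 0 without the other-organ samples, 1856 without the 3 samples with few reads in genes, and 0 to 2198 when 1 sample was left out. For genotype in hypoxia (3633) it was 2179 and 2362 without these 2 sets of samples and 2093 to 4337 when 1 was left out (2365 without knockout hypoxia 3). For the interaction (79) it was 474 by DESeq2, 157 with the replicate block, 271 with 20 libraries, 178 with the GC trend removed (125 without wild type room air 3), 24 and 9 without the 2 sets, and 26 to 125 when 1 was left out. For the mean hypoxia effect (2827) it was 1731 without the other-organ samples. The cause was not tested. The 2 analyses without the 3 samples with few reads in genes, and with the GC trend removed without wild type room air 3, were chosen after seeing the data.

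Sign changes among the 5 genes occurred only in log2 fold changes near 0 that were not called. Loxl4 in wild type hypoxia was 5e-04 without the other-organ samples and -0.32 to 0.0015 when 1 sample was left out. Loxl1 in knockout hypoxia was -0.11 and -0.036 to 0.13 when 1 sample was left out. Between genotypes in room air Loxl4 was 0.028 with the replicate block, 0.004 with the 2 groups alone, 0.030 with 20 libraries, 0.12 with the GC trend removed and 0.086 without the other-organ samples (-0.22 to 0.11); Loxl1 was 0.065 with the GC trend removed, 0.055 when wild type room air 3 was also left out and 0.019 without the other-organ samples (-0.16 to 0.060); Loxl2 was -0.018 with 20 libraries (-0.098 to 0.091). Between genotypes in hypoxia Loxl2 was -0.035 with upper quartile scaling, -0.0014 without a filter and -0.11 without the other-organ samples (-0.063 to 0.072), and Loxl3 was -0.0097 without the 3 samples with few reads in genes (-0.003 to 0.19). For the interaction Loxl2 was 0.019 with 20 libraries and 7e-04 without those 3 samples (-0.089 to 0.10), Loxl3 0.049 with the A library alone (-0.11 to 0.083) and Loxl4 0.12 without the 3 samples (-0.31 to 0.018). Ranges in parentheses are those when 1 sample was left out.

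The labels give the groups the same numbers 1 to 4. Of 24 same-numbered pairs 3 deviated together (r over 0.1), as did 7 of 72 pairs with different numbers. With the replicate block Loxl1 was called for the interaction (-0.56, adjusted p = 0.0394) and Loxl3 was not called in knockout hypoxia (adjusted p = 0.0614). Per kb of the longest transcript, instead of merged exons, Loxl3 stood at 3.14 in knockout room air and Loxl4 at 2.17 and 1.75 in knockout room air and hypoxia. Depth limits Loxl4 most, at 34 to 552 counts per sample.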
